A study of Homo sapiens with 102 samples.

Results

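The libraries described here came from K562 cells exposed to Imatinib together with YM115 inside droplets, and were set against solvent. They were chosen by their titles alone: 12 libraries whose titles pair Imatinib with YM115 (6 titled Imatinib_YM115 and 6 titled YM115_Imatinib), and 6 titled DMSO_DMSO, in which both drug positions held the solvent DMSO, out of 102 libraries in all. The study mixed each pair of 4 agents in microfluidic droplets holding single K562 cells, and a DNA barcode put together in the droplet named the pair and primed reverse transcription of the cells' polyadenylated RNA. Drugs were left on the cells for 12 h before lysis. Each pair and order was made in 3 runs of a screen labelled dT and in 3 runs of a screen labelled Bio, for which the barcoding scheme was changed. Each of the 6 blocks of screen and run therefore held 1 solvent library and 2 combination libraries, and these blocks were kept in the tests.

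K562 is an established human chronic myelogenous leukaemia line and was the only cell source in every group, so nothing here compares it with other cells. The titles give no doses, and they do not say which drug entered by which injection route, so the orders are named as the titles write them. YM115 is the spelling of the labels for the agent that the text of the study calls YM155. The study calls the runs biological replicates, but nothing in the labels says that they used separate cultures, so the p-values measure only the spread between these libraries, which may be technical.

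Imatinib blocks the kinase activity of BCR-ABL, the fusion protein that drives growth of these cells through the RAS-ERK, PI3K and STAT5 routes. YM155 became known as a compound that lowers expression of BIRC5, the gene of survivin, a protein that inhibits apoptosis and takes part in cell division. K562 cells carry an erythroid programme of embryonic and fetal globins, which rises when the cells are pushed toward erythroid differentiation, and they draw on a mitochondrial genome that encodes core subunits of the respiratory chain.

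The depth of the groups differed, which touches every result below. Solvent libraries held 81806 to 198316 counts and 1071 to 2967 detected genes, and combination libraries 130198 to 759756 counts and 1377 to 5110 detected genes. The mean log2 total was 1.15 higher with the combination (p = 0.00412, two-sided exact permutation test within the 6 blocks, 729 arrangements). Among 13 K562 markers, HBG2 was counted in all 18 libraries and HBZ in 5 of 6 solvent and 11 of 12 combination libraries, while LMO2 was at 0 throughout. Of 12 markers of other blood cells, 1 had any count in each group, and their summed level lay between 0 and 191 CPM (a count scaled to a common library total) in the solvent and between 0 and 185 CPM in the combination libraries. BIRC5 was counted in 3 of 12 combination and 0 of 6 solvent libraries, BCR in 4 of 12 and 4 of 6, and ABL1 in 4 of 12 and 3 of 6. None of these drug targets reached the filter for testing in both screens (a count in at least 50% of the libraries), so their response was not measurable at this depth. The upper limit that a count of 0 allows, 3 counts, was 3.34 CPM over the pooled solvent libraries for BIRC5, beside 16.1 CPM over the pooled combination libraries. Of these 68 pooled combination counts, 58 came from 1 library, YM115_Imatinib of run 2 in the Bio screen. The limit covers counting error only, so these levels are not read as a difference.

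Across both screens 1507 of 24965 genes passed the filter, and 1 of them was called. HBG2, the gene of the fetal globin chain G-gamma, rose, and no tested gene was called lower. Calls made up 0.0664% of the genes tested (adjusted p under 0.05, quasi-likelihood test of edgeR, adjusted by Benjamini and Hochberg over all genes tested). A gene counted in solvent libraries alone could not reach this filter, whereas one counted in combination libraries alone could, and then could only differ upward. Without the filter, DROSHA, HSDL1 and PYCR1 were called lower and WDR1 higher. DROSHA and HSDL1 were each counted in 4 of 6 solvent and 1 of 12 combination libraries. WDR1 was counted in 6 of 6 Imatinib_YM115 but only 1 of 6 YM115_Imatinib libraries. These unfiltered calls are therefore a description. On simulated data the fit with the filter called 5 of 100 changes of 3 log2 units, so a missing call does not show a missing change. A further 148 genes lay below an unadjusted p of 0.05 without passing adjustment, making 149 in all. The median log2 fold change over the 1507 genes was 0.71. Scaling by DESeq2's size factors lowered this median to 0.46 and gave 5 calls, of which 1 rose and 4 fell. Positive log2 fold changes made up 69.9% of the 1507 genes, and single fold changes and the counts of listed genes are read against these values.

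HBG2 lay at 29704, 27907 and 37743 CPM in the dT solvent libraries of runs 1 to 3, and at 23905, 14397 and 15366 CPM in the Bio solvent libraries. In the dT combination libraries it ran from 39623 to 77844 CPM with a median of 43501 CPM, and in the Bio combination libraries from 17820 to 53230 CPM with a median of 36613 CPM. Every one of the 12 combination libraries lay above the solvent library of its own screen and run, a pattern shown by 6 of the 1507 genes (0.398%). Within the dT screen the combination and solvent values did not overlap, as for 103 of the 2231 genes tested there (4.62% with all 6 combination libraries above all 3 solvent libraries), whereas within the Bio screen the lowest combination library lay inside the solvent range. Group means were 24837 ± 8936 CPM (SD, n = 6) for solvent and 42700 ± 15417 CPM (SD, n = 12) for the combination. In the 6 separate DMSO controls that the study ran beside the screens, HBG2 had a mean of 12812 CPM (2250 to 32777 CPM). Its mean was 48707 CPM in the 6 YM115_YM115 libraries. How these 2 groups differ from the others was not tested. The fitted log2 fold change of HBG2, combination against solvent, was 1.00 (SE 0.15, adjusted p = 0.0028). It was 0.77 (SE 0.07, adjusted p = 0.00106) in the dT screen and 1.19 (SE 0.26, unadjusted p = 0.000403, adjusted p = 0.302) in the Bio screen, where 905 genes were tested.

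With every library thinned to the smallest total, so that depth was equal, the log2 fold change of HBG2 was 0.71 with an adjusted p of 0.0101. The call was lost without run 3 of both screens (0.92, adjusted p = 0.157), without the blocks (1.04, adjusted p = 0.0637), with screen and run number as separate terms (1.02, adjusted p = 0.0574) and without the filter on low counts (1.26, adjusted p = 0.057). HBG2 is annotated at chr11:5253190-5505605 on the minus strand (GENCODE 29, GRCh38). This span overlaps the annotated span of HBE1. HBG1, a nearly identical neighbour of HBG2, was counted in 1 of 6 solvent and 3 of 12 combination libraries, and reads of both genes may have been split between them.

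The other globins were sparse. Of 10 listed globin genes 4 were tested, 1 rose, and their median log2 fold change was 0.80, beside 0.71 over all genes. HBZ, the embryonic zeta chain, lay at 460, 734 and 419 CPM in the dT solvent libraries and from 943 to 2499 CPM in the dT combination libraries, which did not overlap, a separation shared with the 4.62% of dT genes given above. Bio levels of HBZ ranged from 0 to 2593 CPM in solvent and from 0 to 2504 CPM in the combination libraries, so the groups overlapped fully. Its log2 fold change in both screens was 1.56 (SE 1.20, adjusted p = 0.667). HBE1, the embryonic epsilon chain, had a log2 change of 0.20 (SE 1.70, adjusted p = 0.977) and HBQ1, theta globin, one of 0.60 (SE 2.55, adjusted p = 0.952), and neither differed beyond its error. Among 27 erythroid regulators and heme synthesis genes, 6 were tested and 0 passed; BLVRB, a biliverdin reductase, had both the smallest p and the highest level, at 1008 CPM in solvent and 1769 CPM with the combination (adjusted p = 0.681).

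**Figure D1:**
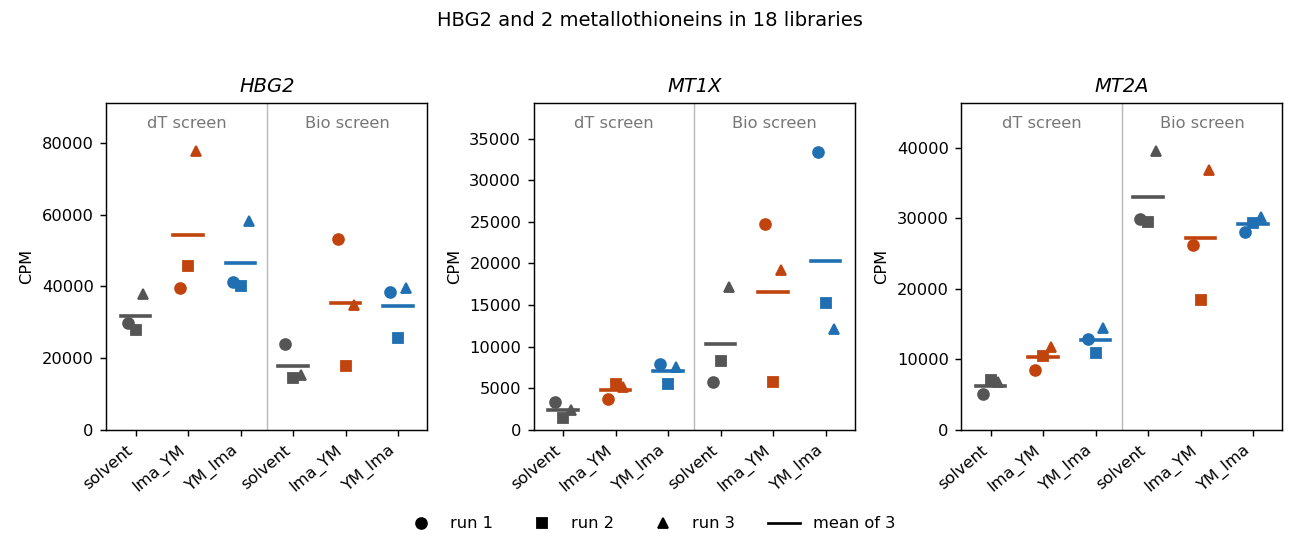
Level in CPM (vertical axis) of HBG2, MT1X and MT2A in the 3 solvent, 3 Imatinib_YM115 (Ima_YM) and 3 YM115_Imatinib (YM_Ima) libraries of each screen, with symbols for the run and a bar for the mean of 3. HBG2 lay above the solvent library of the same run in 12 of 12 combination libraries, while MT2A was higher in 6 of 6 dT and lower in 6 of 6 Bio combination libraries.

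Metallothioneins are small proteins that bind zinc and copper, and 2 of them, MT2A and MT1X, were abundant, while MT3 and MT4 were at 0 in all 18 libraries. None passed in either screen with the filter. Without the filter on low counts, MT2A (1.08, adjusted p = 0.00641) and MT1X (1.58, adjusted p = 0.0205) passed the edgeR test in the dT screen. In CPM, MT2A lay at 5028, 7008 and 6838 CPM in the dT solvent libraries and between 8506 and 14443 CPM in the dT combination libraries. Each of these MT2A values exceeded all 3 solvent values, as for 4.62% of the dT genes. Bio levels lay at 29951, 29494 and 39496 CPM in solvent and between 18365 and 36887 CPM with the combination, and each combination library lay below the solvent library of its run. The log2 fold change was 1.01 (SE 0.19, adjusted p = 0.142) in the dT screen and 0.02 (SE 0.23, adjusted p = 1.00) in the Bio screen. The difference between the screens was -0.78 (SE 0.33, unadjusted p = 0.0292, adjusted p = 0.523), so it did not hold after adjustment.

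MT1X lay at 3310, 1474 and 2360 CPM in dT solvent libraries and between 3663 and 7968 CPM with the combination, again without overlap, as for 4.62% of the dT genes. Its Bio solvent values were 5715, 8254 and 17163 CPM, of which the latter pair lay within the combination range of 5794 to 33342 CPM and the other just below it. Over both screens MT1X had a log2 change of 1.27 (SE 0.35, adjusted p = 0.162). It passed in 1 of 30 alternatives, and in 0 of the 21 that left out a run or a library. Of 11 listed metallothioneins 8 were tested and 0 passed. The log2 fold change was positive for 7 and negative for 1, where 69.9% of all 1507 genes were positive. An unadjusted p under 0.05 in the edgeR test was found for 2, and for 149 of the 1507 genes. Their median log2 fold change was 1.50, beside 0.71 over all genes. MT1G, with a log2 fold change of -0.03 (SE 0.55), and MT1H, with 0.46 (SE 1.05), were close to or within their errors, and MT1E (3.88, SE 2.45), MT1F (1.72, SE 1.87), MT1A (3.29, SE 1.60) and MT1B (5.12, SE 2.73) were listed at 0 in at least 1 library of each group.

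Metallothionein genes share metal response elements, the short DNA motif that the zinc-sensing factor MTF1 reads. The 250 bases before the RefSeq start of MT2A and MT1X are shown because these were the 2 most abundant metallothioneins. The capitals mark the core TGCGCNC or TGCACNC on either strand.
MT2A, chr16:56608334-56608583, plus strand, GRCh38.p14: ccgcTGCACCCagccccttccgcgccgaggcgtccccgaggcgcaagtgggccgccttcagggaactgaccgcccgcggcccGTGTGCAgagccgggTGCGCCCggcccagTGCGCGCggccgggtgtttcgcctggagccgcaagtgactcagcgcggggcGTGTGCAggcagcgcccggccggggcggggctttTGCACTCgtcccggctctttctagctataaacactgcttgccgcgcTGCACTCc
MT1X, chr16:56682220-56682469, plus strand, GRCh38.p14: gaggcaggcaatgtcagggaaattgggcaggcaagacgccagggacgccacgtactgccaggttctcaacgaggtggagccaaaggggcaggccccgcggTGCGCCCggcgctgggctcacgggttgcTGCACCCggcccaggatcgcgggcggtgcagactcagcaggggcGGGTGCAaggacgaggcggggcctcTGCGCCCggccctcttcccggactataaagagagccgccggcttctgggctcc
The MT2A window held 7 such cores and the MT1X window 4. At least 1 core stood in 24.8% of the 35116 RefSeq promoter windows of this length, and at least 4 in 0.37% of them. A match describes the sequence only.

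Mitochondrially encoded genes, ribosomal RNAs included, took a smaller share of the counts in combination libraries. For messages alone the mean difference over the blocks was -1.67 percentage points (p = 0.00274, two-sided exact permutation test within blocks). The share of all mitochondrial genes was between 5.70% and 7.33% in the dT solvent libraries and between 2.71% and 3.92% in the dT combination libraries, and these did not overlap. Bio libraries ran from 3.11% to 6.61% in solvent and from 2.82% to 6.48% with the combination, which overlapped. The mean difference over the blocks was -1.85 percentage points (p = 0.00412, two-sided exact permutation test within blocks). It was -2.85 points in the dT screen (exact p = 0.037, the smallest that 27 arrangements allow) and -0.85 points in the Bio screen (exact p = 0.222).

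Of 13 mitochondrial messages 10 were tested, and over both screens 0 passed. 7 of the 10 had a negative log2 fold change, and the median was -0.25, beside 0.71 over all genes. MT-CO2, a core subunit of cytochrome c oxidase, lay at 4607, 5162 and 9147 CPM in the dT solvent libraries, at 3723, 5797 and 11234 CPM in the Bio solvent libraries, and between 467 and 3134 CPM in the 12 combination libraries, with a median of 1770 CPM. Every combination library lay below all 6 solvent libraries, a pattern shown by 7 of 1507 genes (0.464%). Its log2 fold change was -1.63 (SE 0.39, adjusted p = 0.123). MT-CO2 passed the threshold when libraries were thinned to the smallest total (-1.91, adjusted p = 0.0227), under DESeq2's size factors (-1.90, adjusted p = 0.0264) and among the 146 genes counted in all 18 libraries (-1.86, adjusted p = 0.00139). In all it passed in 4 of 30 alternatives, and in 0 of the 21 that left out a run or a library.

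MT-ND1, a subunit of complex I, lay at 7484, 5844 and 4447 CPM in the dT solvent libraries and at 4350, 11546 and 5611 CPM in the Bio solvent libraries. The combination libraries lay between 2467 and 4458 CPM with a median of 3000 CPM, and each was below the solvent library of its block. The group ranges touched only through the lowest solvent libraries. MT-ND1 had a log2 change of -0.73 (SE 0.32, adjusted p = 0.441), and of -0.96 (SE 0.20, adjusted p = 0.00921) among the 146 genes counted in every library. It passed in 2 of 30 alternatives, and in 0 of the 21 that left out a run or a library.

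MT-CO1, the catalytic subunit of cytochrome c oxidase, was called in the dT screen only, and the difference between the screens did not pass. It lay at 19354, 20836 and 21748 CPM in the dT solvent libraries and between 9843 and 13104 CPM in the dT combination libraries, where it fell by 0.76 on the log2 scale (SE 0.11, adjusted p = 0.0403). All 6 dT combination libraries lay below all 3 dT solvent libraries for 2.42% of the dT genes. The Bio solvent values were 6168 CPM, below the combination range of 9214 to 25326 CPM, and 14452 and 16735 CPM, inside it, with a log2 change of 0.36 (SE 0.43, adjusted p = 0.925). The difference between the screens was 1.32 (SE 0.42, unadjusted p = 0.00614, adjusted p = 0.523). MT-CO3 showed the same order of values, with log2 fold changes of -0.45 (SE 0.14, adjusted p = 0.404) in the dT and 0.42 (SE 0.41, adjusted p = 0.879) in the Bio screen. MT-CYB, MT-ND5 and MT-ND4L had log2 fold changes of -0.27 (SE 0.53), -0.44 (SE 0.54) and -0.26 (SE 0.99) over both screens. MT-ND4 (0.87, SE 0.81), MT-ND2 (4.60, SE 1.98) and MT-ATP6 (3.30, SE 2.05) had positive values, and MT-ND2 was at 0 in 3 and MT-ATP6 in 4 of the 6 solvent libraries. Both mitochondrial ribosomal RNAs were tested and 0 passed, with MT-RNR2 at a log2 fold change of -0.40 (SE 0.84).

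**Figure D2:**
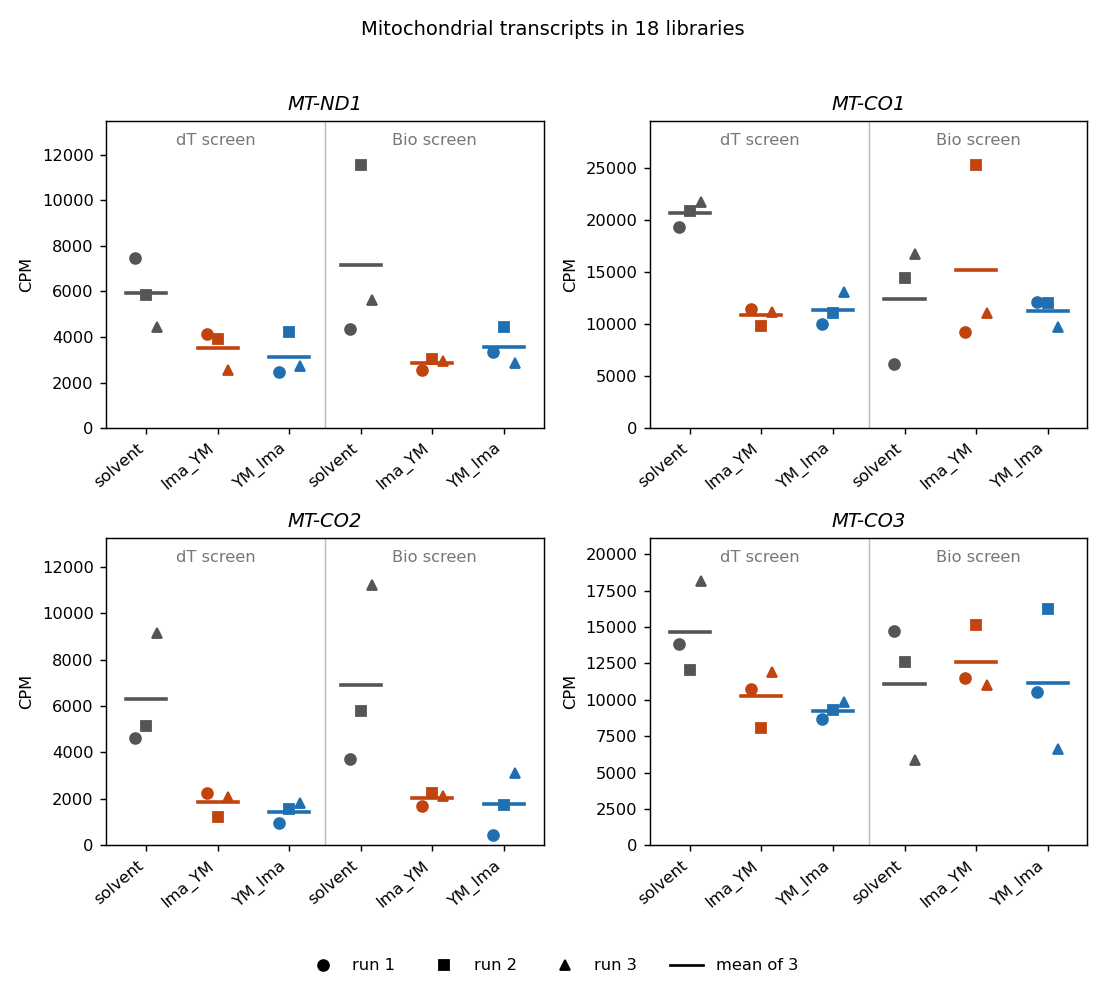
Level in CPM (vertical axis, from 0) of 4 mitochondrial messages in the same 18 libraries, with symbols for the run and a bar for the mean of 3. MT-CO2 lay below all 6 solvent values in 12 of 12 combination libraries, and MT-CO1 and MT-CO3 separated the groups in the dT screen alone.

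Among the 146 genes counted in all 18 libraries, whose median log2 fold change was 0.12, 5 passed (3.42%), 2 higher and 3 lower. Besides HBG2, MT-CO2 and MT-ND1 these were FLNA, which encodes the actin crosslinker filamin A, and PRRG3, a transmembrane protein with a Gla domain. FLNA lay between 983 and 3264 CPM in the 6 solvent libraries and between 7.68 and 717 CPM in the combination libraries, which did not overlap. Such a separation downward was shown by 7 of the 1507 genes (0.464%). The log2 fold change of FLNA in this set was -3.48 (SE 0.68, adjusted p = 0.00541). PRRG3 lay between 24.4 and 166 CPM in solvent and between 73.0 and 399 CPM in combination libraries, and had a log2 change of 1.30 (SE 0.32, adjusted p = 0.0317). With all 1507 genes in the fit neither passed, at adjusted p of 0.19 for FLNA and 0.618 for PRRG3.

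In the dT screen alone, 2231 genes were tested and 3 were called (0.134%). HBG2 and RPL31 rose (0.0896%) and MT-CO1 fell (0.0448%). RPL31, a protein of the large ribosomal subunit, lay at 21355, 21426 and 26705 CPM in solvent and between 24118 and 48425 CPM with the combination. Each combination library exceeded the solvent library of its run, although the ranges overlapped. The log2 fold change was 0.64 (SE 0.08, adjusted p = 0.00989). The Bio value of RPL31 was 0.34 (SE 0.26, adjusted p = 0.77). RPL31 lost its call without any 1 of the 3 runs (adjusted p from 0.0777 to 0.169) and MT-CO1 likewise (from 0.153 to 0.605), while HBG2 kept its call in each case. In the Bio screen no gene passed the edgeR test among 905; 90 had an unadjusted p under 0.05, and DESeq2's Wald test called 71. No gene was called by the edgeR test as differing between the screens in its response. Of 1507 genes, 133 had an unadjusted p under 0.05, and DESeq2 called 130. CYBA, a subunit of the phagocyte NADPH oxidase, had the smallest p in the edgeR test (adjusted p = 0.147).

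Each order was then compared with solvent on its own. Imatinib_YM115 gave 3 calls among 1517 genes (0.198%), HBG2 and WDR1 higher (0.132%) and PYCR1 lower (0.0659%). YM115_Imatinib gave 2 among 1467 (0.136%), HBG2 higher (0.0682%) and PYCR1 lower (0.0682%). The log2 fold change of HBG2 was 1.05 (SE 0.15, adjusted p = 0.000176) for the first and 0.98 (SE 0.14, adjusted p = 0.000495) for the second. Both comparisons use the same 6 solvent libraries. Between the orders HBG2 differed by 0.08 (SE 0.13, adjusted p = 1.00).

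PYCR1 encodes the mitochondrial enzyme that makes proline from pyrroline-5-carboxylate. It was counted in all 6 solvent libraries, at 1319, 4072 and 1810 CPM in the dT and 6098, 1894 and 1980 CPM in the Bio screen. Of the 12 combination libraries 11 had no count of it, and the other, YM115_Imatinib of run 2 in the dT screen, had 1 count (2.54 CPM). It was the sole gene among 12909 with any count that was found in all solvent and in at most 1 combination library (0.00775%). PYCR1 reached the filter in each order through its solvent libraries alone, so that a gene passing in this way had to differ, and it did not reach the filter over all 18. Its calls are therefore given as a description. Pooled over libraries, its level was at least 1684-fold lower in Imatinib_YM115 than in solvent, against a floor of 3 counts over the group. For YM115_Imatinib the ratio of solvent to combination was 6457 (95% exact interval 1158 to 255140, counting error only).

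The near absence of PYCR1 was not particular to the combination. It had 0 counts in 6 DMSO_Imatinib and in 6 Imatinib_Trametinib libraries, 2 counts in all in Imatinib_Imatinib and 1 count in all in YM115_YM115. Counts were seen in 2 of 6 Imatinib_DMSO libraries (183 counts), 4 of 6 DMSO_YM115 libraries (543 counts) and 2 of 6 YM115_DMSO libraries (135 counts). It was counted again in all 6 of the separate DMSO controls that the study ran beside the screens, with a mean of 429 CPM. PYCR1 stood on the lists for the integrated stress response and for amino acid supply. Of the other members tested in either order against solvent, 0 passed.

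WDR1, a cofactor of actin filament disassembly, was counted in 6 of 6 Imatinib_YM115 and 1 of 6 YM115_Imatinib libraries. In Imatinib_YM115 it lay at 2536, 3393 and 1225 CPM in the dT and 10349, 9909 and 4026 CPM in the Bio screen, and each value exceeded all 6 solvent libraries, whose highest was 608 CPM, as for 0.725% of the genes tested. In YM115_Imatinib it was at 247 CPM in 1 library and at 0 in 5. The log2 fold change against solvent was 6.21 (SE 1.06, adjusted p = 0.000976) for Imatinib_YM115 and -5.71 (SE 2.31, adjusted p = 0.601) for YM115_Imatinib. Set against each other the orders differed in 1 of 1928 genes (0.0519%), and this was WDR1 (12.00, SE 1.77, adjusted p = 0.0167). It reached the filter of that comparison almost wholly through the order in which it was high, so the call is a description. Pooled over libraries its level was 66.8 times as high in Imatinib_YM115 (95% exact interval 57.8 to 77.6, counting error only). Mean levels were 6062 CPM (median 3416 CPM) in Imatinib_DMSO and 409 CPM (median 12.6 CPM) in DMSO_Imatinib, a difference that was not tested. WDR1 was also counted in 5 of 6 Imatinib_Imatinib libraries (mean 853 CPM) and 5 of 6 Imatinib_Trametinib libraries (mean 2228 CPM). In Trametinib_Imatinib, which lists imatinib second, it was counted in 6 of 6 (mean 956 CPM). The call between the orders was lost without run 2 (adjusted p = 0.0868) or run 3 (adjusted p = 0.119). KRT8, a keratin, had the next smallest p of a named protein-coding gene, at 3266 ± 1823 CPM (SD, n = 6) in Imatinib_YM115 and 557 ± 605 CPM (SD, n = 6) in YM115_Imatinib (adjusted p = 0.649). KRT8 was chosen after its values were seen, and its reads can be shared with its pseudogene KRT8P36.

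**Figure D3:**
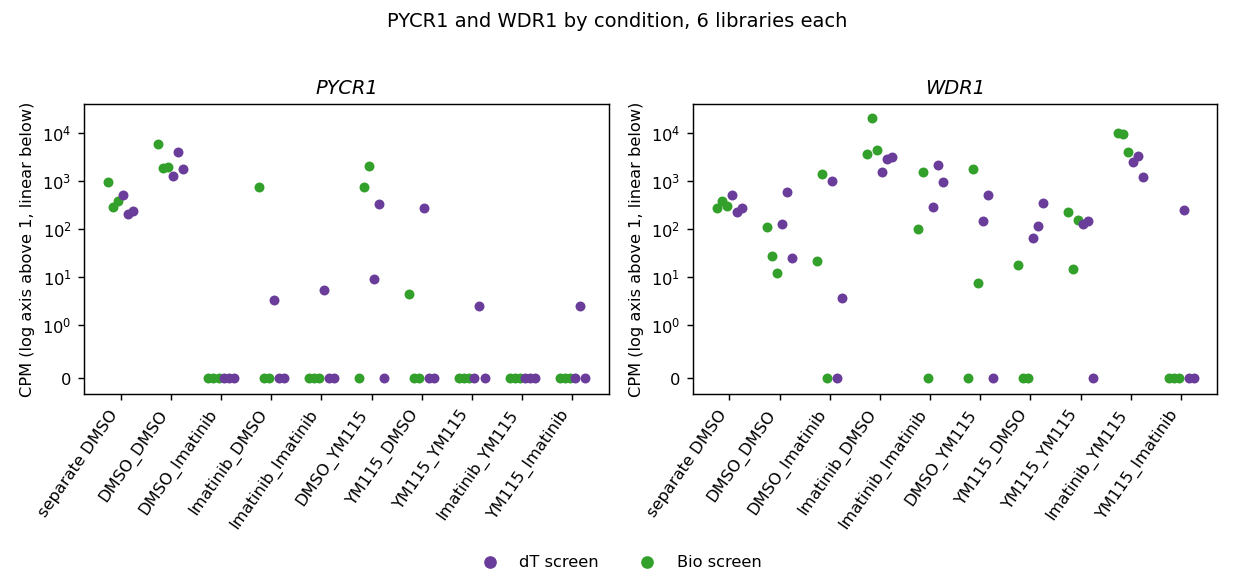
Level in CPM of PYCR1 and WDR1 (vertical axis, logarithmic above 1 and linear below, so that 0 can be drawn) in 6 libraries of each condition with DMSO, Imatinib or YM115, coloured by screen. PYCR1 was counted in all 12 libraries without any drug and in 1 of 12 combination libraries, and WDR1 was counted in 6 of 6 Imatinib_YM115 and 1 of 6 YM115_Imatinib libraries.

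The combination was next set beside each drug alone in a single fit of 42 libraries over 1302 genes, with 12 libraries for imatinib alone and 12 for YM115 alone. Against imatinib alone 3 genes passed (0.23%). HBG2 was higher by 0.66 (SE 0.14, adjusted p = 0.0226), MT-ND1 fell by 1.02 on the log2 scale (SE 0.22, adjusted p = 0.0226), and ZNG1C, a predicted zinc chaperone gene of a family of near-identical copies, was higher by 3.43 (SE 0.75, adjusted p = 0.0226). HBG2 ranged from 9083 to 46592 CPM with a median of 27690 CPM under imatinib alone, which overlapped the combination range, whose median was 39915 CPM. MT-ND1 ranged from 2054 to 8535 CPM with a median of 6936 CPM under imatinib alone, beside a median of 3000 CPM under the combination. ZNG1C had at most 1 count in any imatinib library and at most 22 in any combination library, and its reads could be shared with its copies. Leaving out run 2 or run 3 ended the HBG2 call, leaving out any 1 run ended that of MT-ND1, and ZNG1C was lost without run 1 or run 3 and did not reach the filter without run 2.

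Against YM115 alone no gene passed by the edgeR test; 76 had an unadjusted p under 0.05 and DESeq2 called 15. HBG2 differed by 0.20 (SE 0.14, adjusted p = 0.986) and MT-ND1 by -0.20 (SE 0.22, adjusted p = 0.986). Beside solvent, in the same fit, the log2 fold change of HBG2 was 0.18 (SE 0.17) for imatinib alone, 0.65 (SE 0.17) for YM115 alone and 0.84 (SE 0.17) for the combination. For MT-ND1 these were 0.16 (SE 0.27), -0.66 (SE 0.26) and -0.86 (SE 0.26). MT-CO2 had -1.90 (SE 0.38) for imatinib alone, -1.24 (SE 0.38) for YM115 alone and -1.76 (SE 0.38) for the combination. All of these share the solvent libraries.

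One gene departed from the sum of the single-drug changes, of 1302 tested (0.0768%). HMGA1 encodes an architectural chromatin protein that binds AT-rich DNA. It lay at 8898, 16379 and 14215 CPM in the dT and 13866, 14764 and 9498 CPM in the Bio solvent libraries. Under imatinib alone it ranged from 2921 to 14332 CPM (median 7911), under YM115 alone from 2428 to 7165 CPM (median 5679) and under the combination from 5002 to 12420 CPM (median 8603). All 12 libraries with YM115 alone lay below all 6 solvent libraries, as for 4 of 1302 genes (0.307%), whereas the combination overlapped both groups. The log2 fold changes beside solvent were -0.63 (SE 0.22) for imatinib alone, -1.19 (SE 0.21) for YM115 alone and -0.46 (SE 0.22) for the combination. The combination was thus 1.35 above the sum (SE 0.28, adjusted p = 0.0312), and 0.72 above YM115 alone (SE 0.18, adjusted p = 0.366).

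The HMGA1 call was lost without any 1 of the runs (adjusted p from 0.116 to 0.571) and under DESeq2's size factors (1.40, adjusted p = 0.0745). In the Bio screen HMGA1 lay at 5002, 7035 and 6872 CPM in Imatinib_YM115 and at 11757, 11728 and 12420 CPM in YM115_Imatinib, without overlap as for 2.65% of 1928 genes; over both screens the orders differed by -0.49 (SE 0.27, adjusted p = 1.00). Its processed pseudogene HMGA1P3 had the next smallest p for the departure from the sum (4.25, SE 1.00, adjusted p = 0.0803). HMGA1P2 lay between 12.2 and 97.5 CPM in solvent and between 0 and 10.2 CPM in combination libraries, and HMGA1P8 between 20.4 and 139 CPM and between 0 and 16.6 CPM. Both were lower in 12 of 12 combination libraries than in all solvent libraries, a pattern shown by 7 of 1507 genes (0.464%). Their adjusted p against solvent was 0.162 and 0.103. These pseudogenes, chosen after their values were seen, can draw reads of HMGA1, and how such reads were assigned is not given in the sources used here.

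**Figure D4:**
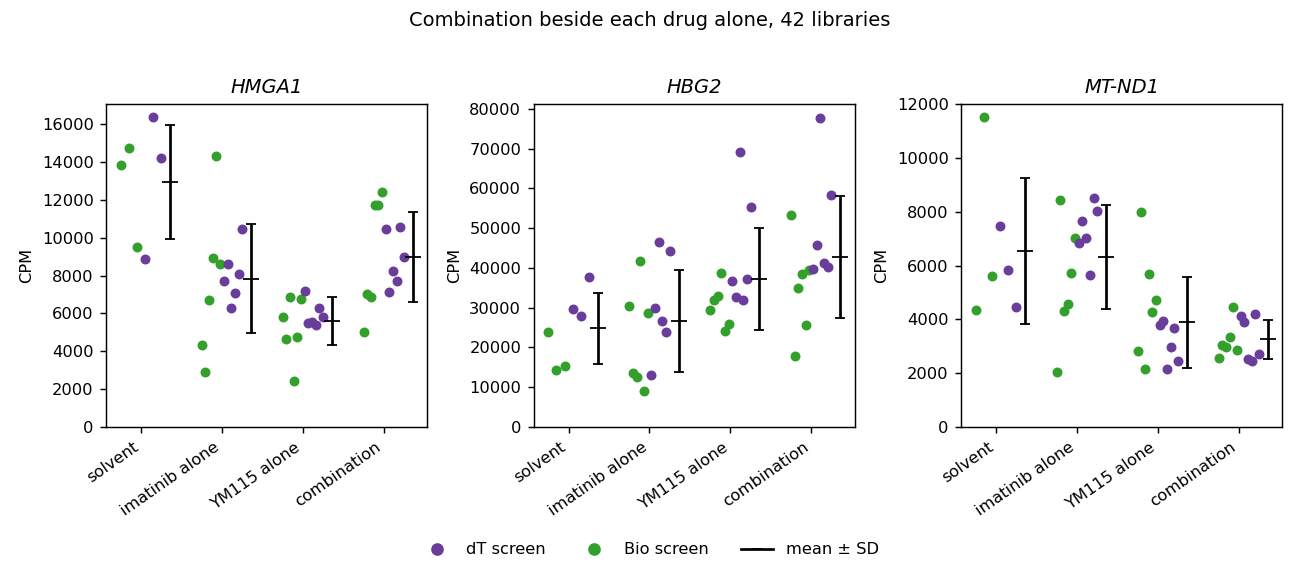
Level in CPM (vertical axis, from 0) of HMGA1, HBG2 and MT-ND1 in 6 solvent, 12 imatinib-alone, 12 YM115-alone and 12 combination libraries, coloured by screen, with mean ± SD to the right of each group. HMGA1 was lowest with YM115 alone (median 5679 CPM) and stood at a median of 8603 CPM with the combination, while MT-ND1 was lower with YM115 alone and the combination than with imatinib alone.

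The remaining lists of genes gave no member past the threshold over both screens. Ferritin and iron genes were 2 of 9 tested. FTL, the ferritin light chain, lay between 5641 and 12118 CPM in solvent and between 1831 and 8487 CPM with the combination, was lower in 10 of 12 libraries than in their own solvent library, and had a log2 change of -0.56 (SE 0.32, adjusted p = 0.52). FTH1, the heavy chain, had -0.65 (SE 0.83, adjusted p = 0.829). Nuclear genes of the respiratory chain were 31 of 57 tested, with 23 positive and 8 negative log2 fold changes, near the 69.9% positive over all genes, and a median of 0.80; COX5B, the most abundant, lay at means of 4123 and 7046 CPM in solvent and combination (adjusted p = 0.431), and NDUFA11, of complex I, at 190 and 1519 CPM (adjusted p = 0.19).

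Ribosomal proteins lay below the median of all genes, with 40 of 47 large subunit genes tested at a median log2 fold change of 0.31 and 29 of 32 small subunit genes at 0.20. RPL31 (0.52, SE 0.14, adjusted p = 0.164) was the most abundant of the large subunit and RPL23A had its smallest p, at means of 0.924 CPM in solvent, where 1 of 6 libraries had a count, and 77.2 CPM with the combination (adjusted p = 0.162). Translation factors, 17 of 39 tested, had a median of 0.39, and RACK1, a scaffold on the ribosome, a log2 change of 0.67 (SE 0.22, adjusted p = 0.19).

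Signalling lists were thinly covered. BCR-ABL to ERK signalling had 6 of 24 genes tested with a median of 1.12. MAP2K2, the kinase MEK2, lay at a mean of 1372 CPM in solvent and 359 CPM with the combination and was lower in 12 of 12 libraries than in their own solvent library, a pattern of 12 of 1507 genes (0.796%), with a log2 change of -1.97 (SE 1.18, adjusted p = 0.547). For STAT5 targets 1 of 13 genes was tested (CCND3, -0.11, SE 0.98), and for MAPK targets 1 of 19 (MYC, 1.13, SE 2.56). Genes of MYC and the nucleolus, 6 of 27 tested, had a median of 0.02, with NCL, nucleolin, at 0.37 (SE 1.30) and NHP2 at 2.05 (SE 1.51).

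In the lists tied to division and cell death, 8 of 37 mitotic genes were tested (median 1.45), 5 of 39 genes of DNA replication and nucleotide synthesis (1.95), 7 of 16 histones (2.48), 5 of 10 high mobility group genes (2.46) and 2 of 27 p53 targets and apoptosis genes (3.70). CDCA8, a partner of survivin in the chromosomal passenger complex, was counted in 0 of 6 solvent and 9 of 12 combination libraries (adjusted p = 0.19). It reached the filter through combination libraries alone, so it could only differ upward, and its values are a description. The median total of the solvent libraries was also lower. STMN1 (2.39, SE 1.98), GART (2.76, SE 1.75), MCM7 (1.15, SE 2.28), BAX (4.83, SE 3.36) and SESN2 (2.57, SE 3.31) did not pass. BAX was counted in 1 of 6 solvent and 8 of 12 combination libraries. It reached the filter mostly through the combination libraries, so its value is a description. H2BC12 had a log2 change of -5.96 (SE 2.13, adjusted p = 0.267), H1-4 one of 3.37 (SE 1.64, adjusted p = 0.504) and HMGN2 one of 2.91 (SE 1.21, adjusted p = 0.406).

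Stress and proteostasis lists were likewise without calls. Chaperones and heat shock genes, 19 of 41 tested, had a median of 1.08; HSPE1, the mitochondrial co-chaperonin, was the most abundant at means of 1296 and 3453 CPM (adjusted p = 0.488) and CALR, calreticulin, had the smallest p (-5.36, SE 1.53, adjusted p = 0.187). Proteasome and ubiquitin genes, 14 of 40 tested, had 13 positive log2 fold changes and 5 genes at an unadjusted p under 0.05, where 69.9% of all 1507 genes were positive and 149 had such a p, and a median of 2.36; PSMB7, a beta subunit, lay at means of 620 and 1832 CPM (adjusted p = 0.376). The integrated stress response had 10 of 30 genes tested (median 0.23; ATF4 -0.92, SE 1.28; GARS1 4.09, SE 2.02), redox 6 of 29 (median 0.15; GSTP1 0.09, SE 0.49; NQO1 6.94, SE 3.52) and amino acid supply 5 of 21 (median 3.44; SLC1A5 3.44, SE 2.02).

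Glycolysis genes, 9 of 21 tested, had a median of 1.00. ENO1, enolase, was the most abundant at means of 5550 and 7686 CPM (adjusted p = 0.504). ALDOA, aldolase A, lay at means of 1125 and 121 CPM (adjusted p = 0.324). Every combination library lay below all 6 solvent libraries, as for 7 of 1507 genes (0.464%). The 1 hypoxia target tested of 21 was LDHA (3.30, SE 2.66). Actin and tubulin cytoskeleton genes were 13 of 36 tested (median 0.65, with FLNA described above and MYL6 at 0.26, SE 0.76), splicing proteins 17 of 43 (median 1.07; SF3B2 2.74, SE 1.56; SRSF10 with a count in 1 of 6 solvent libraries, adjusted p = 0.267) and abundant noncoding RNAs 6 of 15 (median -0.27; MALAT1 -1.10, SE 1.54; ZFAS1 4.95, SE 2.21). The solvent libraries were shallower than the combination libraries for every list, and the part of depth in these medians was not tested.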

How the data were processed

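The deposited table holds whole-number gene counts for 102 libraries, which the authors made from pooled 3' reads split by drug barcode. The submitters' processing notes name STAR 2.4.2a and GRCh38; the annotation, the counting tool, its use of strand and any collapsing of duplicate molecules are not given in the sources used here, so counts may include PCR copies and intervals cover counting error only. Groups and runs came from the titles. Members, gene lists and comparisons were chosen with earlier results of these data known. Genes counted in at least 50% of the libraries of a comparison were tested with edgeR 4.0.16 (quasi-likelihood F-test, TMM scaling, Benjamini-Hochberg adjustment over all genes tested, threshold 0.05) in R 4.3.3, with the 6 blocks of screen and run in the model, as the study corrected for replicates. Runs were paired by the design, since each run of a screen was 1 emulsion with 1 raw file; the 18 pairs of libraries of the same screen and run had a mean correlation of 0.02 of their deviations from the group means, and 0 were over 0.1. Standard errors were taken from the F statistic. CPM divides a count by all counts of the library. The fit for single drugs used 42 libraries with 1 estimate of the spread. All 42 libraries passed the minimum of 1000 detected genes and the limit of 15% mitochondrial counts. No pair of replicate libraries held identical values. On simulated data the fits called 5 of 100 genes set to differ by 3 log2 units over both screens. The number was 4 of 100 in the dT screen, 0 of 100 in the Bio screen and 1 of 100 between the screens. For these fits it was 0 of 100 at 1 log2 unit. At 3 log2 units each order against solvent gave 0 of 100, and the orders against each other 2. Against imatinib alone it was 44 of 100, against YM115 alone 23 and beyond the sum 3. The genes named were those past the threshold, the listed globins, metallothioneins, mitochondrial messages, ferritin and drug targets, and in each other list the gene with the smallest p and the one with the highest mean CPM. A few genes that this rule names are not reported here. Lists are described by counts and medians only. Alternatives were DESeq2 1.42.0, its size factors, other filters, thinning, no block, and leaving out runs or libraries. Columns of other conditions were used only for the single drugs, PYCR1, WDR1 and HBG2. Coordinates are from GENCODE 29 and promoter sequences from RefSeq on GRCh38.p14; 5 of 11 listed metallothioneins had one.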

Additional observations from a re-analysis of the deposited data

Results flagged for a closer look

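Among the 6 combination libraries of a screen, 34 checks for a single library standing apart (3 library measures and 14 genes in each screen) found 4, where chance flags about 1 in 20 such checks. MT-CYB was highest at 4475 CPM in YM115_Imatinib of run 3 in the dT screen. FTH1 was highest at 2365 CPM in Imatinib_YM115 of run 1 in the dT screen and at 1674 CPM in YM115_Imatinib of run 3 in the Bio screen. MT-CO1 was highest at 25326 CPM (25326.5 before rounding) in Imatinib_YM115 of run 2 in the Bio screen, and the other 5 Bio combination libraries did not exceed 12158 CPM.

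The CPM of MT2A lay on opposite sides of solvent in the screens, with 6 of 6 dT combination libraries above and 6 of 6 Bio combination libraries below the solvent library of their run. With TMM scaling the fitted Bio log2 fold change was 0.02 (SE 0.23), so a fall in the Bio screen was not shown. The fitted difference of the log2 fold changes (Bio minus dT) was -0.78, which did not pass adjustment (adjusted p = 0.523, edgeR). WDR1 differed between the orders, by 12.00 on the log2 scale (Imatinib_YM115 minus YM115_Imatinib, adjusted p = 0.0167, edgeR), and it reached the filter almost wholly through the order in which it was high.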

How the results depend on the processing

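The number of calls depended on the tool more than on any single library. DESeq2's Wald test called 120 genes over both screens (82 higher, 38 lower), 192 in the dT and 71 in the Bio screen, 88 for Imatinib_YM115, 74 for YM115_Imatinib, 66 between the orders, 130 between the screens, 44 against imatinib alone, 15 against YM115 alone and 46 beyond the sum. Without a filter on low counts the calls numbered 4 over both screens (DROSHA, HSDL1 and PYCR1 lower, WDR1 higher), 10 in the dT screen, 5 for Imatinib_YM115, 4 for YM115_Imatinib, 2 between the screens, 18 against imatinib alone, 2 against YM115 alone and 6 beyond the sum. Calls without the filter can rest on genes counted mostly in the group where they are high, so they are a description. DESeq2's size factors gave 5 over both screens, 1 in the dT screen, 1 for YM115_Imatinib and 0 beyond the sum. Restriction to genes counted in every library gave 5 and thinning gave 2. Without the replicate block the counts were 0 over both screens, 0 in the dT screen, 1 for Imatinib_YM115, 0 between the orders, 1 between the screens and 0 against imatinib alone; screen plus run number gave 0 over both screens. The block changed no other count by over 1.5 times, and the log2 total (1.15, exact p = 0.000709) and the mitochondrial share (-1.85 points, exact p = 0.00978) passed without the pairing too. In the Bio screen alone the log2 total differed by 1.16 (exact p = 0.0741) and the share by -0.849 points (exact p = 0.222).

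Leaving out runs or single libraries gave 0 to 2 calls over both screens, 1 to 2 in the dT and 0 to 1 in the Bio screen, 3 to 4 for Imatinib_YM115, 2 to 3 for YM115_Imatinib, 0 to 1 between the orders and against imatinib alone, and 0 between the screens, against YM115 alone and beyond the sum. The log2 total then differed by 0.987 to 1.26 and the share by -2.18 to -1.36 points. HBG2 passed in 26 of 30 alternatives, with log2 fold changes from 0.71 to 1.26.

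Directions reversed for genes that passed no test over both screens: without the filter MT1G (0.23), MT-CO1 (0.00906), MT-CO3 (0.24) and MT-ND4L (0.0187); under DESeq2 HBE1 (-0.00477); without the replicate block HBE1 (-0.41), HBQ1 (-1.04) and MT1G (0.0386); when thinned HBQ1 (-0.97); with screen plus run number HBQ1 (-0.74). Leaving out runs or libraries, log2 fold changes ran from -0.465 to 1.33 for HBE1, from -2.01 to 2.54 for HBQ1, from -0.205 to 0.296 for MT1G, from -0.334 to 1.10 for MT1H, from -0.184 to 0.139 for MT-CO3, from -0.859 to 0.864 for MT-ND4L and from -0.593 to 0.0563 for MT-CYB. The causes were not tested. Depth limits every count: the floor of 3 counts was 15.1 to 36.7 CPM in a solvent and 3.95 to 23.0 CPM in a combination library.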
